A study of Mus musculus with 16 samples.

Results

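The genes described here are the 8 that encode the AP-1 transcription factors Fos, Fosb, Fosl1, Fosl2, Jun, Junb, Jund and Atf3. They were taken by gene symbol from a table of 55401 genes, and each symbol had 1 row. All 8 were among the 18969 genes that passed the filter on low counts. Peaks belonged to a member where the deposited peak carried that gene's Ensembl identifier. AP-1 is a dimer that binds DNA through a basic region and a leucine zipper. Fos proteins do not pair stably with each other and need a Jun protein as partner, while Jun proteins also pair among themselves, and Atf3 can pair with Jun proteins. Fos, Fosb, Jun, Junb and Atf3 are immediate early genes: serum, growth factors or stress raise their transcription within minutes through MAP kinases, and their mRNAs are short-lived.

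The cells were MC38, a mouse colon adenocarcinoma line grown in DMEM with serum. The Ythdf2-KO group (titles tagged gY2) had 3 input libraries and 3 m6A immunoprecipitation libraries, and the WT group (titles tagged gNC) had the same numbers. YTHDF2 RNA immunoprecipitation (RIP) was done in WT cells only, with 2 RIP libraries and 2 inputs. YTHDF2 is a protein that binds N6-methyladenosine (m6A) in mRNA and recruits deadenylases. The tags are read here as guide names, so the WT cells may carry a control guide, and the labels do not say whether either group is a single clone or whether replicates came from separate cultures. The p-values therefore measure the spread between these libraries, which may be technical.

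Gene counts covered the 6 input libraries, with totals of 45441281 to 50959555. Ythdf2 itself measured 67.9, 59.8 and 61.5 CPM (a gene's count relative to the scaled total of its library) in the libraries labelled Ythdf2-KO and 55.6, 68.6 and 59.7 CPM in the WT libraries, with an edgeR adjusted p of 0.809. A whole-gene count does not check an edited site, so the group is called KO-labelled below. KO-labelled replicate 1 stood apart. Its gene counts differed from those of KO-labelled replicates 2 and 3 by a chi-square of 71.2 per degree of freedom each, against 9.62 between replicates 2 and 3. It was nearer to WT replicates 1, 2 and 3 (30.0, 46.8 and 48.0) than to its own group. WT replicate 1 was also apart from its group, by 30.2 and 28.5 from WT replicates 2 and 3, against 8.84 between WT replicates 2 and 3. It was thus about as far from them as from KO-labelled replicate 1. Because KO-labelled replicate 1 differed most from its group, results are given with and without that library. All 8 intestinal epithelial and carcinoma markers (Epcam, Cdh1, Krt8, Krt18, Krt19, Krt20, Cdx2, Vil1) were below 1 CPM in every library, and Epcam and Krt18 had no read. Their summed level was 0.796 to 1.08 CPM in KO-labelled and 1.09 to 1.27 CPM in WT libraries. The 6 fibroblast markers summed to 258 to 294 CPM in KO-labelled and 318 to 363 CPM in WT libraries. Of these 6, all tested, Dcn was called lower, where 1.54% of all tested genes were. The 8 leukocyte markers summed to 52.1 to 129 CPM in KO-labelled and 67.6 to 87.0 CPM in WT libraries, with 6 of them below 1 CPM throughout and Adgre1 at 0. Of the 2 that were tested, 0 were called. The 4 endothelial markers summed to 1.32 to 2.68 CPM in KO-labelled and 0.978 to 1.44 CPM in WT libraries, with 0 of the 2 tested called. The part of these markers in the AP-1 levels was not tested.

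The mRNAs of the Jun family were more abundant than those of the Fos family and Atf3 in these cells. Levels of different genes are compared per length, as CPM per kilobase of the transcript with the longest coding sequence (RPKM). Junb averaged 63.2 ± 27.6 RPKM in KO-labelled and 40.6 ± 11.9 RPKM in WT cells (SD, n = 3 each). Jun averaged 38.9 ± 14.4 RPKM in KO-labelled and 29.6 ± 11.7 RPKM in WT cells. Jund averaged 34.5 ± 10.5 RPKM in KO-labelled and 26.4 ± 3.42 RPKM in WT cells. The ranges of these 3 genes overlapped within each group, and the lowest Jund library stood above every Fosl2 library in both groups. In bulk RNA, fewer cells of a kind and less RNA per cell cannot be told apart.

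Below them came Fosl2, at 9.28 ± 2.55 RPKM in KO-labelled and 10.4 ± 1.52 RPKM in WT cells, and Fosl1, at 7.82 ± 1.23 RPKM in KO-labelled and 6.98 ± 0.364 RPKM in WT cells. These were followed by Fos, Atf3 and Fosb, whose order differed between the groups. Fos averaged 5.02 ± 7.55 RPKM in KO-labelled and 3.75 ± 5.55 RPKM in WT cells. Atf3 averaged 3.93 ± 0.375 RPKM in KO-labelled and 4.03 ± 0.484 RPKM in WT cells. Fosb averaged 1.94 ± 2.52 RPKM in KO-labelled and 1.52 ± 2.19 RPKM in WT cells. By this length, no neighbours below Jund were separate in the KO-labelled libraries, and the ranges of Fosl2, Fosl1 and Atf3 did not touch each other in the WT libraries. With the union of all annotated exons as the length, Fosl1 stood above Fosl2 in KO-labelled cells (7.17 against 6.27 RPKM) and below it in WT cells (6.40 against 7.06 RPKM). By that length the WT ranges of Fosl2 and Fosl1 overlapped, and in KO-labelled cells Atf3 was clear of Fosb.

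The Fos family as a whole was the smaller side in every library. Summed over its 4 members it reached 14.0, 19.8 and 38.4 RPKM in the KO-labelled libraries and 16.2, 18.7 and 33.1 RPKM in the WT libraries. The Jun family summed to 79.3, 152 and 179 RPKM in the KO-labelled libraries and 72.3, 92.3 and 125 RPKM in the WT libraries. Fos and Fosb together made up 7.24%, 6.51% and 48.4% of the Fos family level in KO-labelled replicates 1, 2 and 3, and 5.11%, 4.11% and 42.9% in WT replicates 1, 2 and 3.

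**Figure D1:**
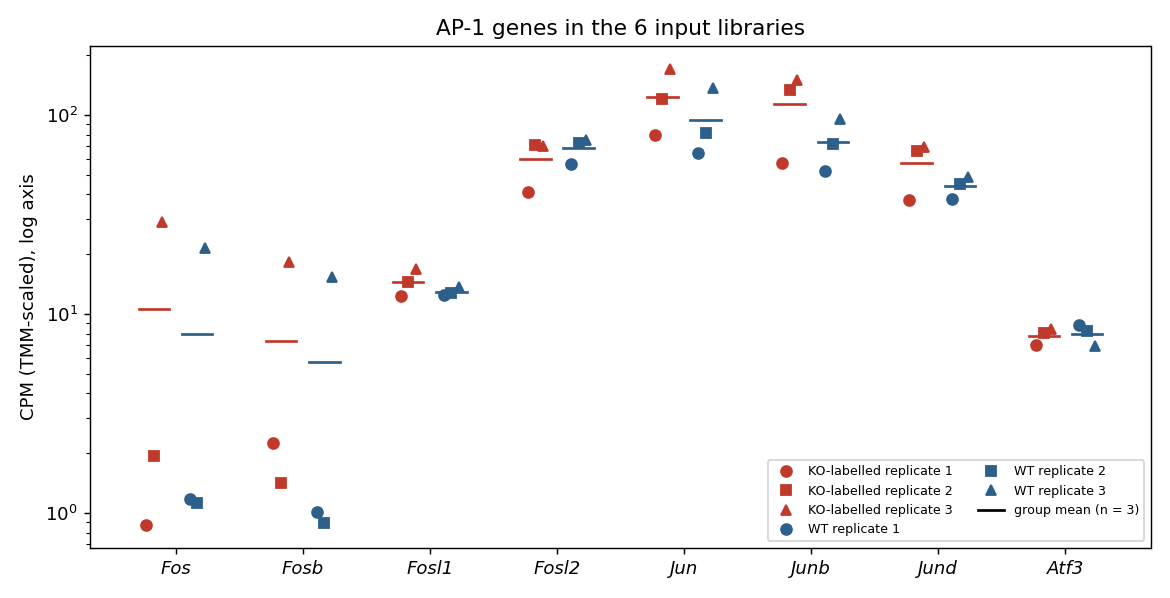
CPM on a log axis for each AP-1 gene in the 3 KO-labelled (red) and 3 WT (blue) input libraries, with symbols for replicate numbers and a bar at the group mean. Fos and Fosb stand far higher in replicate 3 of both groups, and the KO-labelled and WT ranges overlap for all 8 genes.

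The first comparison asked whether the AP-1 genes differ between KO-labelled and WT cells. None of the 8 passed edgeR's quasi-likelihood test at an adjusted p below 0.05, where 4.54% of the 18969 genes tested did (2.99% higher and 1.54% lower). At an unadjusted edgeR p below 0.05 the count was also 0 of 8, where 29.5% of tested genes (16.9% higher and 12.6% lower) passed. DESeq2 gave an adjusted p to 6 of the 8 (none for Fos and Fosb) and called 0. In all 8 genes the groups overlapped, whereas 33.8% of the tested genes had no overlap. The median log2 fold change of the 8 was 0.37, against -0.0055 over all tested genes, and 6 of the 8 were above 0. That median was -0.022 without KO-labelled replicate 3 and 0.63 without KO-labelled replicate 1.

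Junb (ENSMUSG00000052837.7; mm10 chromosome 8, 84974484 to 84978718, minus strand), a Jun protein with weaker activation and growth-restraining roles in many cells, had the largest fold change of the 8. It measured 57.6, 134 and 151 CPM in KO-labelled libraries against 52.8, 71.9 and 95.6 CPM in WT libraries. KO-labelled replicates 2 and 3 stood above all WT libraries, and replicate 1 lay within them. Fitted over all 6 libraries, the log2 fold change was 0.64 (SE 0.36, edgeR adjusted p = 0.277). Junb overlaps Prdx2 on the other strand by 173 exonic bases, and no source used here says whether reads were counted by strand, which holds for the other overlaps named below too.

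Jund (ENSMUSG00000071076.6; chromosome 8, 70698949 to 70700616, plus strand), the Jun protein that most cells make constitutively, had a similar order of libraries. It measured 37.5, 65.9 and 69.3 CPM in KO-labelled libraries against 37.9, 45.0 and 49.2 CPM in WT libraries. Again KO-labelled replicates 2 and 3 were above all WT values, and replicate 1 was below them. Its fold change was 0.39 on the log2 scale (SE 0.23, edgeR adjusted p = 0.295). Jund overlaps Gm11175 on the other strand by 877 exonic bases.

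Without KO-labelled replicate 1, edgeR called both genes higher: Junb by 0.96 (SE 0.21, adjusted p = 0.0110) and Jund by 0.62 (SE 0.11, adjusted p = 0.00404). In that fit 35.4% of 19551 tested genes were called (19.3% higher and 16.1% lower), and these 2 were the members called among the 8, a count near the share over all genes. Neither passed when any of the other 5 libraries was left out, nor without both replicates 3. Those fits called 0 to 53 of all tested genes higher and 0 to 40 lower, so hardly any gene could be called in them. Without both replicates 3 the values were 0.62 (SE 0.41, edgeR adjusted p = 0.651) for Junb and 0.32 (SE 0.28, edgeR adjusted p = 0.736) for Jund. The other members did not pass without KO-labelled replicate 1, among them Jun at 0.63 (SE 0.29, edgeR adjusted p = 0.137) and Fosl1 at 0.27 (SE 0.11, edgeR adjusted p = 0.100).

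Jun (ENSMUSG00000052684.4; chromosome 4, 95049034 to 95052222, minus strand), the founding Jun protein and the main target of JNK kinases, did not pass. It measured 79.8, 121 and 171 CPM in KO-labelled libraries against 65.0, 81.7 and 136 CPM in WT libraries. The ranges overlapped, and in both groups replicate 3 was the highest. Its log2 fold change was 0.39 (SE 0.34, edgeR adjusted p = 0.472). It was 0.088 without KO-labelled replicate 3 and 0.75 without WT replicate 3. Jun overlaps the antisense gene Junos by 232 exonic bases.

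Of the Fos proteins that lack the strong activation domain, Fosl2 (Fra-2; ENSMUSG00000029135.10; chromosome 5, 32135801 to 32157842, plus strand) measured 41.4, 70.5 and 70.0 CPM in KO-labelled libraries against 56.9, 72.9 and 75.2 CPM in WT libraries. KO-labelled replicate 1 was the lowest of the 6 libraries, and the other values overlapped. Between the groups, Fosl2 differed by -0.17 on the log2 scale (SE 0.21, edgeR adjusted p = 0.625), and it was 0.042 without KO-labelled replicate 1. Fosl1 (Fra-1; ENSMUSG00000024912.6; chromosome 19, 5447547 to 5455946, plus strand), often high in invasive carcinoma lines, measured 12.3, 14.4 and 16.9 CPM in KO-labelled libraries against 12.5, 12.7 and 13.8 CPM in WT libraries. Its highest library was KO-labelled replicate 3 and its lowest KO-labelled replicate 1, with WT between them. Its log2 fold change was 0.16 (SE 0.14, edgeR adjusted p = 0.474). Fosl1 overlaps Ccdc85b on the other strand by 1163 exonic bases.

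Atf3 (ENSMUSG00000026628.13; chromosome 1, 191170296 to 191218039, minus strand), a stress-induced repressor or activator downstream of Atf4, varied least between libraries by the ratio of its highest to its lowest value. It measured 6.97, 8.03 and 8.41 CPM in KO-labelled libraries against 8.80, 8.23 and 6.93 CPM in WT libraries. The highest library was 1.27 times the lowest, and the groups overlapped throughout. At -0.034 on the log2 scale (SE 0.15, edgeR adjusted p = 0.905), Atf3 did not pass, and the sign turned without KO-labelled replicate 1 (0.043) or WT replicate 1 (0.028).

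**Figure D2:**
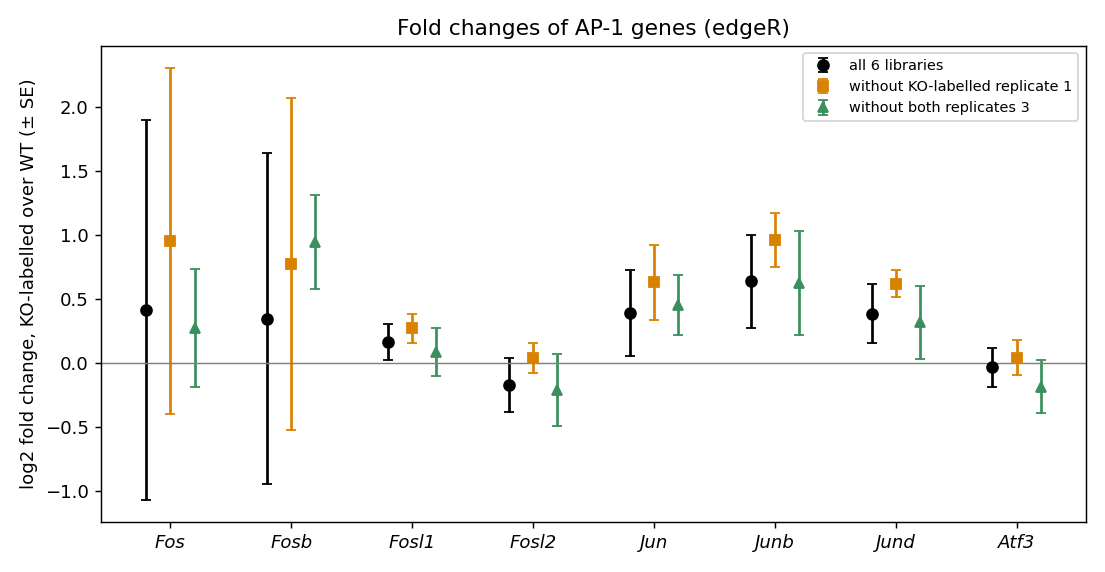
Log2 fold change (KO-labelled over WT) with its SE for each AP-1 gene from edgeR, fitted to all 6 libraries (black), without KO-labelled replicate 1 (orange) and without both replicates 3 (green). Junb and Jund sit at 0.64 and 0.39 with all libraries and at 0.96 and 0.62 without KO-labelled replicate 1, while the SE of Fos spans more than 1 log2 unit each way unless both replicates 3 are left out.

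The widest spread lay within the groups, in Fos and Fosb. Fos (ENSMUSG00000021250.13; chromosome 12, 85473890 to 85477273, plus strand), the classic immediate early gene, had 45, 95 and 1360 counts in KO-labelled libraries against 56, 52 and 1104 counts in WT libraries. As CPM these were 0.874, 1.93 and 29.0 in KO-labelled libraries and 1.18, 1.13 and 21.4 in WT libraries. Replicate 3 was 20.6 times the mean of replicates 1 and 2 in KO-labelled cells and 18.5 times in WT cells. Between the groups the log2 fold change was 0.41 with an SE of 1.48 (edgeR adjusted p = 0.879). Without both replicates 3 it was 0.28 (SE 0.46, edgeR adjusted p = 0.867). It was -2.50 without KO-labelled replicate 3, 3.18 without WT replicate 3, -0.11 without WT replicate 1 and -0.097 without WT replicate 2. With KO-labelled replicate 1 left out it was 0.96.

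Fosb (ENSMUSG00000003545.3; chromosome 7, 19302696 to 19310051, minus strand), a Fos protein with a strong activation domain, showed the same high libraries. It measured 2.25, 1.42 and 18.4 CPM in KO-labelled libraries against 1.02, 0.891 and 15.3 CPM in WT libraries. Replicate 3 was 9.99 times the mean of replicates 1 and 2 in KO-labelled cells and 16.1 times in WT cells. Among replicates 1 and 2, both KO-labelled values were above both WT values. The group difference was 0.35 on the log2 scale (SE 1.29, edgeR adjusted p = 0.883) with all libraries and 0.95 (SE 0.37, edgeR adjusted p = 0.560) without both replicates 3. It was -1.64 without KO-labelled replicate 3 and 2.93 without WT replicate 3, -0.16 without either WT replicate 1 or WT replicate 2, and 0.77 without KO-labelled replicate 1.

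Of 14459 tested genes with a mean of at least 1 CPM, Fos and Fosb were the 2 (0.0138%) at least 4-fold higher in replicate 3 than in each other replicate of both groups. Any other pair of a KO-labelled and a WT library taken as the high ones gave 0 or 1 gene. At a 2-fold minimum in replicate 3 there were 6 genes: Fos, Fosb, Gm10382, Gm10639, Rdh5 and Egr1, an immediate early zinc finger factor. Egr1 measured 4.37, 2.52 and 9.56 CPM in KO-labelled libraries against 3.34, 5.02 and 16.2 CPM in WT libraries. Smaller excesses of replicate 3 over the mean of replicates 1 and 2 were found in Ccn1 (2.39 times in KO-labelled, 2.57 times in WT cells), in the MAP kinase phosphatase gene Dusp1 (1.98 times in KO-labelled, 1.90 times in WT cells), in Jun (1.71 times in KO-labelled, 1.86 times in WT cells) and in Junb (1.57 times in KO-labelled, 1.53 times in WT cells). Among the 23 tested other immediate early genes, replicate 3 was the highest library of both groups in 6. Their median ratio was 1.38 in KO-labelled and 1.09 in WT cells, with lowest values of 0.850 (Klf4) in KO-labelled and 0.487 (Egr3) in WT cells. Over all tested genes the median of this ratio was 0.997 in KO-labelled and 0.997 in WT cells. Replicate 3 was the highest library of both groups in 6 of the 8 AP-1 genes and in 7.85% of tested genes. Egr1, Ccn1, Dusp1 and the replicate 3 ratio were singled out after their values were seen. The labels do not say whether a replicate number marks a shared culture day or harvest, and its part in these levels was not tested.

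**Figure D3:**
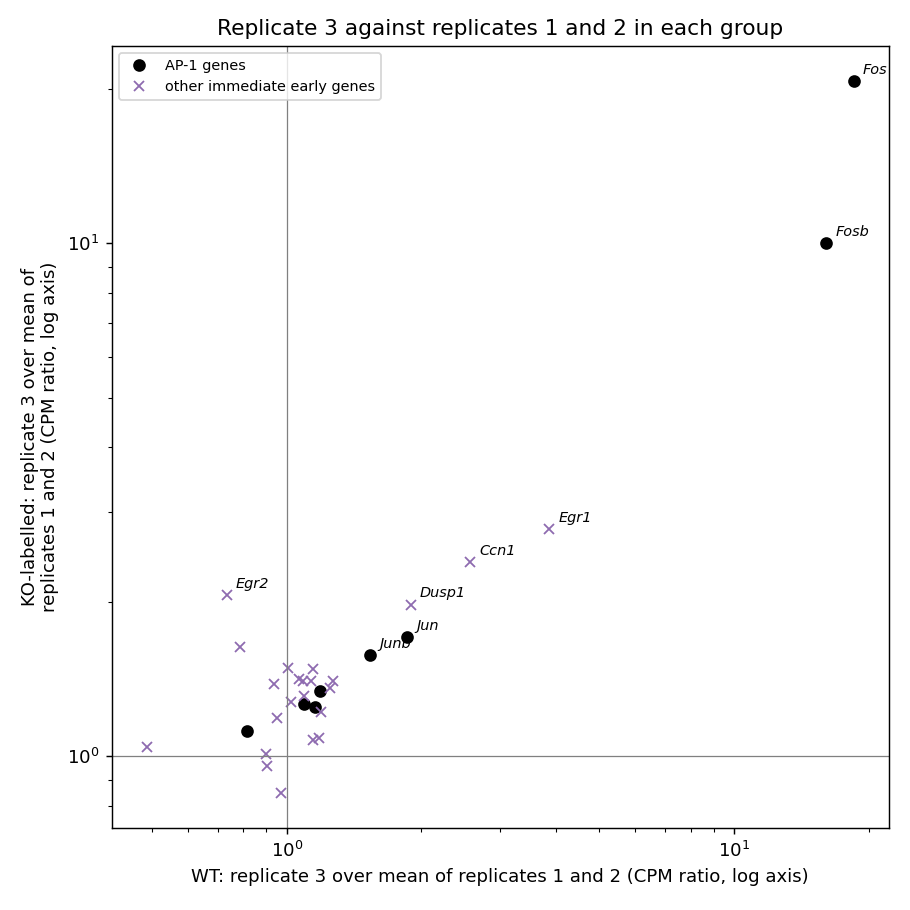
Ratio of CPM in replicate 3 to the mean of replicates 1 and 2, in KO-labelled cells (y axis) and in WT cells (x axis), both log axes, for AP-1 genes (black) and other tested immediate early genes (purple crosses), with lines at a ratio of 1. Fos and Fosb lie far above the rest on both axes, and Egr1, Ccn1, Dusp1, Jun and Junb follow.

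Because Fos and Fosb were high in the same libraries, their promoters are shown, from RefSeq (GRCm38.p6), 250 bases before to 50 bases after the annotated start, with 2 short motifs in capitals. These are TGACG, the core of the cAMP response element TGACGTCA that CREB and ATF proteins bind, and TATAAA, the TATA box.
Fos, chr12:85473640-85473939, plus strand: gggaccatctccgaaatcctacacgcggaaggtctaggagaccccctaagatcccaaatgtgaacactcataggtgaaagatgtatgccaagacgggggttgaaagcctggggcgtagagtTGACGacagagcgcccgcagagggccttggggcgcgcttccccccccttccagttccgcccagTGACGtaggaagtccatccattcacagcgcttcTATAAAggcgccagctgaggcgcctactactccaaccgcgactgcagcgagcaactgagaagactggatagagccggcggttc
Fosb, chr7:19309996-19310295, minus strand: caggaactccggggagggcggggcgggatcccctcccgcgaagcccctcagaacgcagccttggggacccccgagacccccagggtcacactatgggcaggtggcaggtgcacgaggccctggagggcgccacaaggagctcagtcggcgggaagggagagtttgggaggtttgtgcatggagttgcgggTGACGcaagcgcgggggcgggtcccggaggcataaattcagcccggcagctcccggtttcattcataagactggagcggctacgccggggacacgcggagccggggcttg
Both strands were searched. TGACG began 129 and 66 bases before the start in Fos and 60 bases before it in Fosb, and it was found in 20.8% of 32851 promoter windows of this length. TATAAA began 33 bases before the start in Fos, and it was found in 13.6% of windows. Of the 7 members with a window, 4 held TGACG (Fos, Fosb, Junb and Atf3). No member's window held the CArG box that serum response factor binds (1.63% of windows did). None held the full TGACGTCA, which contains TGACG (1.79%), or the AP-1 site in the form TGANTCA (7.81%). Other variants were not searched. The Jun window holds TGACATCA, a close variant of TGACGTCA that the search did not count. The windows end 250 bases before the start, so sites farther upstream were not searched. Some RefSeq starts differed from the gene positions given above. The Jund window (70697489 to 70697788) ended before the gene began (70698949). The Fosl2 window began at 32136222, inside the gene (from 32135801), and TATAAA in Junb began at the RefSeq start itself. The Atf3 window (191183284 to 191183583) lay well inside the gene, which on the minus strand begins at 191218039. For these genes the windows may lie off the promoter in use, so the motif counts describe the windows only.

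Across the 6 libraries, Fos was most like Fosb among the members (Pearson r = 0.951 on log2 CPM), and Junb was most like Jund (r = 0.990). These coefficients describe 6 libraries that share groups and replicate numbers. Outside the family, among 9682 genes with a mean of at least 10 CPM, the pattern of Junb was closest to that of Gfm2 (r = 0.998), a mitochondrial elongation factor gene, Pikfyve (r = 0.994), a phosphoinositide kinase gene, and Smyd3 (r = 0.994), a methyltransferase gene. Their own ranges were narrow: Gfm2 measured 55.7, 59.8 and 60.1 CPM in KO-labelled libraries and 55.1, 56.6 and 57.9 CPM in WT libraries.

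Known targets of AP-1, genes whose promoters or enhancers AP-1 binds in other studies, gave calls where the AP-1 genes gave none. Of 25 listed AP-1 target genes, 22 were tested, 8 rose in KO-labelled cells and 0 fell at an edgeR adjusted p below 0.05, where 2.99% of all tested genes rose and 1.54% fell. The median log2 fold change of the list was 1.13, against -0.0055 over all tested genes, and it was the same with Mmp10 set at the bound that 3 counts per WT library give. The list was drawn up with earlier results of these data known, so the count is not independent evidence of its direction. Mmp10, a secreted stromelysin, measured 0.796, 4.10 and 3.26 CPM in KO-labelled libraries and had no read in any WT library (edgeR adjusted p = 0.0336). It passed the filter on low counts through the KO-labelled libraries alone, so its call is not independent of that filter. Mmp3, a stromelysin too, measured 3.98, 20.0 and 21.4 CPM in KO-labelled libraries against 0.296, 0.369 and 0.737 CPM in WT libraries (5.00 on the log2 scale, SE 0.72, edgeR adjusted p = 0.0271). In both genes every KO-labelled library was above every WT library, and KO-labelled replicate 1 was the lowest of its group. Groups did not overlap in 9 of the 22 tested targets and in 33.8% of all tested genes. The gelatinase gene Mmp9 measured 2.10, 9.33 and 9.20 CPM in KO-labelled libraries against 0.973, 0.304 and 0.446 CPM in WT libraries (3.57 on the log2 scale, SE 0.67, edgeR adjusted p = 0.0377). The collagenase gene Mmp13 measured 2.84, 9.71 and 9.75 CPM in KO-labelled libraries against 0.910, 0.630 and 0.834 CPM in WT libraries (3.23 on the log2 scale, SE 0.49, edgeR adjusted p = 0.0293). Both repeated the order seen in Mmp3, with KO-labelled replicate 1 between WT and the other KO-labelled libraries. Hbegf, a growth factor of the EGF family, measured 5.58, 11.2 and 11.6 CPM in KO-labelled libraries against 4.32, 2.87 and 3.40 CPM in WT libraries (1.42 on the log2 scale, SE 0.31, edgeR adjusted p = 0.0492). Ptgs2, which encodes cyclooxygenase-2, measured 171, 343 and 348 CPM in KO-labelled libraries against 136, 104 and 108 CPM in WT libraries (1.31 on the log2 scale, SE 0.27, edgeR adjusted p = 0.0431). In these genes KO-labelled replicates 2 and 3 lay close together, and neither replicate 3 stood apart as it did for Fos and Fosb. Without KO-labelled replicate 1, 19 of the 22 were higher, where 19.3% of all tested genes were. Without any other single library edgeR called 0 of the list, and 11 to 12 were higher at an unadjusted p below 0.05 (10.4% to 14.5% of all tested genes). Without both replicates 3 it also called 0, and 8 were higher at that unadjusted threshold (5.06% of all tested genes). DESeq2 called 11 of the 22 higher, where it called 11.8% of all tested genes higher. With no filter on low counts edgeR called 1.

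Other bZIP genes, the possible partners of AP-1 proteins, gave 0 calls with edgeR among 22 tested of 23 listed (median log2 fold change 0.21), and 7 were higher and 4 lower at an unadjusted p below 0.05 (16.9% and 12.6% of all tested genes). DESeq2 called 5 of them higher and 3 lower, where it called 11.8% of all tested genes higher and 7.10% lower. Without KO-labelled replicate 1, edgeR called 8 higher and 5 lower (19.3% and 16.1% of all tested genes). The other single libraries left out gave 0 calls, where 0 to 53 of all tested genes were higher and 0 to 40 lower. Of 25 upstream kinases, SRF cofactors and ubiquitin ligases of AP-1 proteins, all tested, 1 rose and 0 fell (2.99% and 1.54% of all tested genes), and the median log2 fold change was 0.25. The count of higher genes was 8 with DESeq2 (11.8% of all tested genes) and 0 with no filter on low counts. The gene that rose was Rps6ka2, a ribosomal S6 kinase of the ERK pathway. It measured 47.3, 40.9 and 42.0 CPM in KO-labelled libraries against 31.2, 30.7 and 28.8 CPM in WT libraries, without overlap. Groups did not overlap in 12 of the 25 genes of that list and in 33.8% of all tested genes. The log2 fold change of Rps6ka2 was 0.52 (SE 0.091, edgeR adjusted p = 0.0341). Without KO-labelled replicate 1, 14 genes of that list were higher and 1 lower, where 19.3% of all tested genes were higher and 16.1% lower. Without any other single library none was called, with 4 to 6 higher at an unadjusted edgeR p below 0.05 (10.4% to 14.5% of all tested genes).

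Of 25 other immediate early genes, 23 were tested, 2 rose and 1 fell (2.99% and 1.54% of all tested genes), with a median log2 fold change of 0.36. Dusp2, a phosphatase of nuclear MAP kinases, measured 7.25, 8.62 and 8.54 CPM in KO-labelled libraries against 3.89, 3.04 and 3.96 CPM in WT libraries, and rose by 1.16 on the log2 scale (SE 0.17, edgeR adjusted p = 0.0273). Btg2, an antiproliferative gene, measured 5.48, 6.89 and 8.75 CPM in KO-labelled libraries against 3.64, 3.24 and 3.67 CPM in WT libraries, and rose by 1.00 (SE 0.20, edgeR adjusted p = 0.0426). Klf4, a zinc finger factor, measured 55.8, 42.6 and 41.8 CPM in KO-labelled libraries against 78.7, 80.4 and 77.1 CPM in WT libraries, and fell by 0.75 (SE 0.12, edgeR adjusted p = 0.0310). In these 3 genes the groups did not overlap, as in 7 of the 23 tested genes of the list and 33.8% of all tested genes. DESeq2 called 7 of the list higher (11.8% of all tested genes), and edgeR with no filter on low counts called none. Without KO-labelled replicate 1, 12 were higher and 1 lower, where 19.3% and 16.1% of all tested genes were. Without any other single library none was called, with 5 to 7 higher and 1 to 2 lower at an unadjusted edgeR p below 0.05 (10.4% to 14.5% and 7.18% to 11.6% of all tested genes). Egr1, whose replicate 3 excess is given above, did not pass (log2 fold change -0.58, SE 0.67, edgeR adjusted p = 0.599).

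The second question was which AP-1 transcripts carried m6A and YTHDF2 RIP peaks. Each group had 1 deposited peak list, so peaks have no replicate error and no test, and each peak's score is the authors' own, read here as a p-value. KO-labelled m6A peaks lay on 5 of the 8 genes (45.0% of tested genes had one), WT m6A peaks on the same 5 (48.7%), and RIP peaks on 5 (34.3%). The m6A peaks were on Jun, Junb, Fosl1, Fosl2 and Atf3. The RIP peaks were on Jun, Junb, Fosl1, Fosl2 and Fosb. Jun, Junb, Fosl1 and Fosl2 had peaks in all 3 lists, as 27.1% of tested genes did. Fos and Jund had no peak in any list, like 45.0% of tested genes. Of these 2, Jund was at 37.5 CPM or more in every input library, and Fos was under 2 CPM in 4 of the 6.

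Jun carried the widest RIP peak of the family. A single RIP peak of 2742 bases (chromosome 4, 95049362 to 95052103, score 1e-132) and a second of 91 bases covered 88.8% of the transcript. Peaks at least this wide numbered 626 of the 23372 in the RIP list. In both m6A lists the peak over the end of the Jun coding sequence had a score of 0, the lowest possible, shared by 390 of 17428 KO-labelled and 421 of 19236 WT peaks. Counted in bases from the last coding base, it ran from -135 to 372 in KO-labelled cells (508 bases) and from -194 to 402 in WT cells (597 bases). A second m6A region lay in the 5′ UTR as 1 peak of 418 bases in KO-labelled cells and as 2 peaks of 239 and 91 bases in WT cells.

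Sites inside peaks of at least 2 of the 3 lists are shown as 29-base windows of the transcript (GENCODE M21, mm10). GGACT, a sequence typical of methylated adenosines, is in capitals. Jun was the one member with GGACT inside peaks of all 3 lists, at 3 places. Its RIP peak of 2742 bases contains every Jun m6A peak, so a Jun site in both m6A lists was bound to lie in all 3.
Jun 5′ UTR, chr4:95051571-95051599, minus strand: ccgctgttgctgGGACTggtctgcgggct
Jun 3′ UTR, chr4:95050125-95050153, minus strand: ggtacacaagatGGACTgggttgcgacct
Jun 3′ UTR, chr4:95049979-95050007, minus strand: gaccagaacgatGGACTtttcgttaacat
Junb 3′ UTR, chr8:84977257-84977285, minus strand: agctcacacactGGACTccggcccgcccg
Fosl2 3′ UTR, chr5:32153312-32153340, plus strand: acccacccggtgGGACTtagtggtgagac
Fosl2 3′ UTR, chr5:32153430-32153458, plus strand: aacttggtttgtGGACTcagacgcgcctg
Atf3 3′ UTR, chr1:191170632-191170660, minus strand: tcaaagggtgtaGGACTccatactcagtg
The Junb site lay in the WT m6A and RIP lists but not in the KO-labelled m6A list. The Fosl2 and Atf3 sites lay in both m6A lists and outside RIP peaks. Fosl1 has no GGACT in its transcript although it carried 4 KO-labelled and 3 WT m6A peaks. In the central 151 bases of each peak on the sense strand, GGACT was found in 3 of 11 KO-labelled and 2 of 13 WT m6A windows of the family, against 23.0% and 22.8% of all windows of those lists. The RIP list gave 1 of 13, against 13.9%. A match is a description of the letters, not a mapped modification.

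Junb differed between the m6A lists. RIP peaks of 1246 and 387 bases covered 90.3% of its transcript. In the coding sequence an m6A peak was listed in KO-labelled cells (179 bases, score 1e-139) and in WT cells (327 bases, score 1e-100). A WT peak of 534 bases across the stop codon, mostly in the 3′ UTR (chromosome 8, 84976999 to 84977532, score 1e-80) had no counterpart in the KO-labelled list. Of 3195 WT m6A peaks with a score of 1e-80 or lower, 13 (0.407%) had none. That threshold was taken from the Junb peak after it was seen. The Junb RNA level was 57.6 to 151 CPM in the KO-labelled inputs and 52.8 to 95.6 CPM in the WT inputs. With 1 list per group and unknown depth of the immunoprecipitation libraries, the difference in peaks was not tested.

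Fosl2 had 2 KO-labelled and 3 WT m6A peaks, and 7 RIP peaks, the most of any member, each 121 to 330 bases wide and spread from the coding sequence to 4177 bases past the last coding base. Its strongest m6A peak lay across the end of the coding sequence in both groups (451 bases, score 1.3e-91, in KO-labelled and 510 bases, score 1.3e-87, in WT cells). A WT peak of 181 bases in the 5′ UTR was not in the KO-labelled list. Fosl1 had m6A peaks in the 5′ UTR, the coding sequence and the 3′ UTR in both groups, and 1 RIP peak of 270 bases in the 3′ UTR, inside the KO-labelled m6A peak there and overlapping the WT one by 210 bases. Atf3 had 2 m6A peaks in each group, 1 around the stop codon and 1 farther into the 3′ UTR, and no RIP peak. Fosb had 1 RIP peak of 60 bases in its coding sequence, with a score of 0.00051, and no m6A peak.

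All 11 KO-labelled m6A peaks of the family were overlapped by a WT m6A peak, sharing 1 or more exonic bases on one strand (89.3% of all KO-labelled peaks were). Of the 13 WT m6A peaks, 11 were overlapped by a KO-labelled one (80.3% of all WT peaks), and the other 2 were those of Junb and Fosl2 described above. RIP peaks overlapped 6 of the 11 KO-labelled m6A peaks (49.5% over the whole list) and 8 of the 13 WT m6A peaks (48.3%). These shares of the family stand near those of the whole lists.

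**Figure D4:**
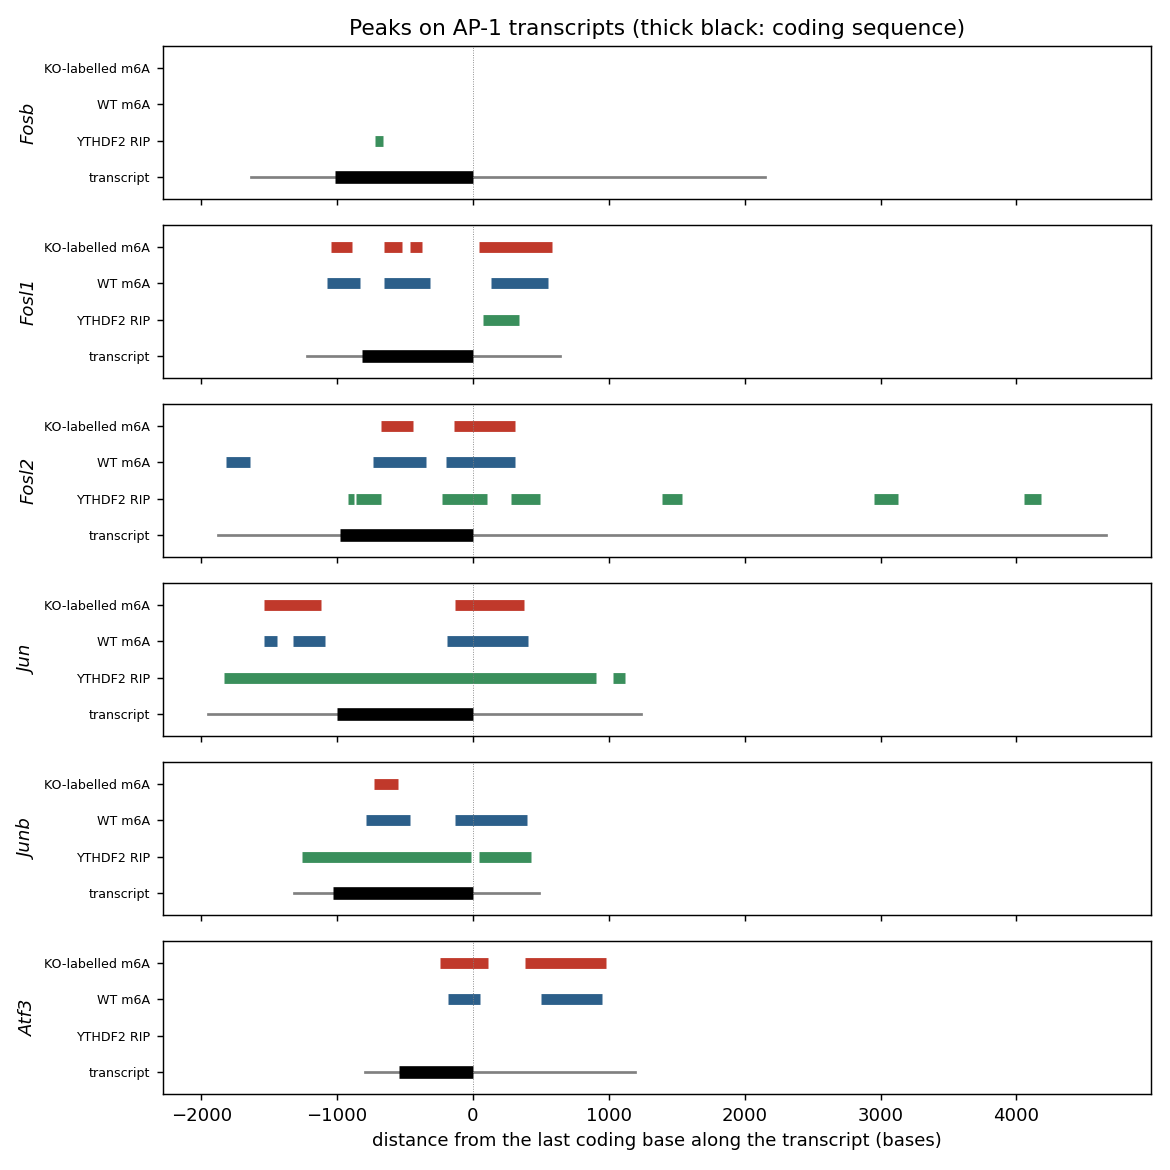
Positions of KO-labelled m6A (red), WT m6A (blue) and YTHDF2 RIP peaks (green) along the longest-coding transcript of the 6 AP-1 genes with a peak, in bases from the last coding base, with the coding sequence as a thick black bar. Jun and Junb are covered by RIP peaks over 88.8% and 90.3% of their length, and the WT peak at the end of the Junb coding sequence has no KO-labelled counterpart.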

How the data were processed

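The authors deposited whole-number gene counts for the 6 input libraries, without normalization, and 3 peak lists whose per-peak score lies between 0 and 0.003; for their range, these deposited scores were taken to be p-values. The submitters' processing notes name HISAT2, HOMER, ChIPseeker and mm10 without roles. How reads were counted (tool, strand, annotation) and peaks were called or pooled is not given in the labels or headers. The table held 0 columns of other samples.

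Counts were tested with edgeR 4.0.16 (quasi-likelihood F test, TMM factors, filterByExpr, Benjamini-Hochberg over 18969 genes, threshold 0.05) in R 4.3.3, with DESeq2 1.42.0 as an alternative; the scripts were tested on simulated data. CPM uses TMM-scaled library sizes, SE is the log2 fold change divided by the square root of F, and 3 counts, the limit a count of 0 allows for counting error only, equal 0.0582 to 0.0652 CPM. Gene models are GENCODE M21 (55141 of 55401 identifiers matched). Peaks were compared by exonic bases on the same strand.

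The members, lists and tests were chosen with earlier results of these data known. Named genes were the 8 members, up to 6 called genes per list with the largest changes, and the 3 genes most like the member that was both the most abundant and the most changed. Listed symbols Mkl1, Mkl2, Cyr61 and Ctgf were read as Mrtfa, Mrtfb, Ccn1 and Ccn2.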

Additional observations from a re-analysis of the deposited data

How the results depend on the processing

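The directions of Jun, Junb, Jund and Fosl1 held in all settings run, and those of the other 4 members did not. With single libraries left out the log2 fold change ran from -2.50 to 3.18 for Fos, -1.64 to 2.93 for Fosb, -0.30 to 0.042 for Fosl2 and -0.13 to 0.043 for Atf3, and the median of the 8 from -0.022 to 0.63. Signs turned for Fos without KO-labelled replicate 3 (-2.50), WT replicate 1 (-0.11) or WT replicate 2 (-0.097), for Fosb without the same libraries (-1.64, -0.16 and -0.16), and for Atf3 also without WT replicate 1 (0.028). In those fits the count of members called higher ran from 0 to 2. Counts ran from 0 to 8 higher and 0 to 5 lower for other bZIP partners, 0 to 14 higher and 0 to 1 lower for upstream kinases and SRF cofactors, 0 to 19 higher for AP-1 targets, 0 to 12 higher and 0 to 1 lower for other immediate early genes, and 0 to 3782 higher and 0 to 3144 lower for all genes. In each case the highest count came without KO-labelled replicate 1. With DESeq2, 5 other bZIP partners were higher and 3 lower. By the same method 8 upstream genes, 11 AP-1 targets and 7 immediate early genes were higher, and 2244 of all genes were higher and 1346 lower. With no filter on low counts, 0 upstream genes, 1 AP-1 target and 0 immediate early genes were higher, 0 immediate early genes were lower, and 70 of all genes were higher and 41 lower. With the replicate block the counts were 0 upstream genes, 1 AP-1 target and 0 immediate early genes higher, 0 immediate early genes lower, and 45 of all genes higher and 26 lower. Without both replicates 3, a setting chosen after seeing the data, they were 0, 0, 0 and 0, with 1 and 0 over all genes. Fits without a library have fewer samples, and for the other settings the cause was not tested. The labels give the groups the same replicate numbers, but deviations from the group means correlated by 0.0494, 0.115 and 0.0502 between same-numbered libraries, so the numbers were not taken as pairs; every library correlated best with its own number, which is a hint from the data. The replicate block left the 8 members uncalled, with Jun at an edgeR adjusted p of 0.0702. It narrowed the SE of every member but Atf3: from 1.48 to 0.25 for Fos, 1.29 to 0.22 for Fosb, 0.34 to 0.079 for Jun and 0.36 to 0.15 for Junb. By replicate number, the KO-labelled library was above the WT one each time for Jun, Junb and Fosb. It was below each time for Fosl2, and the other members were mixed. With RLE factors 7 AP-1 targets were higher in place of 8, and the other counts of members and lists were equal to those with TMM. At a peak score of 1e-05 or lower Fosb lost its RIP peak, and there or with an overlap of at least 0.5 of the smaller peak the counts of members and overlaps stayed within 1.5 times. Fos and Fosb, at 41 to 116 counts outside the replicates 3, are the members that depth limits most.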

Other observations

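Peaks were also counted on the wider lists. KO-labelled m6A, WT m6A and RIP peaks lay on 17, 18 and 13 of the 22 tested other bZIP genes, and on 23, 22 and 21 of the 25 upstream kinases and SRF cofactors. They lay on 8, 12 and 9 of the 22 tested AP-1 targets and on 15, 17 and 17 of the 23 other immediate early genes. Over all tested genes the shares were 45.0%, 48.7% and 34.3%. Among the 13 WT m6A peaks scored as strongly as the Junb end peak and with no KO-labelled counterpart, 2 others lay on bZIP genes, Maf and Atf5. Maf, a bZIP factor of the large MAF group, measured 13.4, 3.37 and 3.0 CPM in KO-labelled libraries against 25.5, 24.8 and 24.7 CPM in WT libraries. Atf5, a stress-responsive bZIP factor, measured 157, 47.5 and 43.6 CPM in KO-labelled libraries against 195, 180 and 174 CPM in WT libraries. Neither passed edgeR with all libraries (log2 fold change -1.92, adjusted p = 0.0766 for Maf and -1.15, adjusted p = 0.154 for Atf5). Without KO-labelled replicate 1 edgeR called both lower, with log2 fold changes of -2.97 for Maf (adjusted p = 2.66e-05) and -2.005 for Atf5 (adjusted p = 2.90e-05). The mean of Junb was higher in the KO-labelled inputs, and Junb did not pass with all libraries (edgeR adjusted p = 0.277). These genes were named after the peak list was seen, and the difference in peaks was not tested.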
